A study of Homo sapiens with 8 samples.

Results

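Plexins are cell-surface receptors for semaphorins, and the 8 genes described here are 7 human plexins (PLXNC1, PLXNA1, PLXNA2, PLXNA3, PLXNB1, PLXNB2 and PLXND1) and SEMA7A, the ligand of plexin C1. They were followed in HepG2 cells, a human liver cancer line, given 3 µM quercetin, a plant flavonol, for 2, 4, 12 or 24 h in serum-free medium, and in control cells kept in the same medium without quercetin for the same times. All cells had been starved of serum beforehand, and each combination of treatment and time was measured on 1 Affymetrix array, so there were 8 arrays and no replicates. PLXNC1 was picked because its level was lower with quercetin at all 4 times; its quercetin difference, and those of the other genes on the same contrast, are therefore given as descriptions without a test. Every probe set annotated to exactly 1 of the 8 symbols was taken, which gave 22 probe sets of the 41091 that carry 1 gene symbol, and 8 genes of 19775. Values are the deposited log2 expression values from RMA, a method that summarises the probes of a probe set into 1 level, and a probe set's level is compared only with itself on other arrays.

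Semaphorins bound by a plexin bring its intracellular GTPase-activating domain into action on small GTPases of the Ras and Rap families. The outcome in a cell is a change of the actin skeleton and of adhesion through integrins, known best from the steering of growing axons and also from vessels, immune cells and epithelia. Class A plexins mostly need a neuropilin as co-receptor for secreted class 3 semaphorins, class B plexins bind class 4 semaphorins directly and can couple to the receptor kinases MET and ERBB2, plexin D1 binds SEMA3E, and plexin C1 binds SEMA7A, which is held to the membrane by a lipid anchor and also binds integrins.

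The stretches before the transcript starts are shown for the receptor and ligand pair, because PLXNC1 is the gene with the persistent difference and SEMA7A is its partner. Each is the 250 bases upstream of a RefSeq start on GRCh38.p14, written in the direction of the gene, at chr12:94148327-94148576 (plus strand) for the outer PLXNC1 start, chr12:94262369-94262618 (plus strand) for an inner PLXNC1 start, and chr15:74433959-74434208 (minus strand) for SEMA7A. Capitals mark GCGTG, the core bound by the aryl hydrocarbon receptor with its partner, in either orientation.
PLXNC1 outer start: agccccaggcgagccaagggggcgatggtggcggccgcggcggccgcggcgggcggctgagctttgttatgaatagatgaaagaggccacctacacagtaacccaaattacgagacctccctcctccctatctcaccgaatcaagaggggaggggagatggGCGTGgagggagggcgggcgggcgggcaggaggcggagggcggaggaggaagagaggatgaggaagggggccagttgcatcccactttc
PLXNC1 inner start: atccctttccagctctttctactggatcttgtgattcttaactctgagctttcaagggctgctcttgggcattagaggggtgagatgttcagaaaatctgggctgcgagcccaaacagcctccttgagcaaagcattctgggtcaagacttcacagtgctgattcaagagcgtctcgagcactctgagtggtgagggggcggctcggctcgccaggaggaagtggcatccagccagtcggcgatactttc
SEMA7A: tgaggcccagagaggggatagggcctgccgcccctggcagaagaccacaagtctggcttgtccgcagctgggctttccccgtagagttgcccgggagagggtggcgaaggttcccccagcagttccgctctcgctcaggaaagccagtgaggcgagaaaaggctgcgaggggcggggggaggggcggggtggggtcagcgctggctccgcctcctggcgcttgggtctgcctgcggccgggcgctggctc
The outer PLXNC1 window held 1 GCGTG, and the inner PLXNC1 and the SEMA7A windows held none. GC content was 65.2% in the outer PLXNC1 window, 53.6% in the inner one and 70.0% in the SEMA7A window. Over the 11 RefSeq windows of the 8 genes, GCGTG was present in 2, those of PLXNC1 and PLXND1, and the antioxidant response core TGACNNNGC in none. Both strands were searched. Among all 35116 RefSeq windows of this length, 32.2% held GCGTG and 10.9% held TGACNNNGC. These letters are a description of the windows and not evidence of binding.

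Array medians lay at 7.36 to 7.48, SDs across the probe sets of 1 array at 1.74 to 1.95, and pairwise correlations at 0.964 to 0.992. Both arrays of the 12 h pair and the control array at 2 h had lower hybridisation spike-in signals (11.19 to 11.35, against 11.83 to 12.11 on the other arrays). At 2 h the probe sets for 18S ribosomal RNA read 12.01 with quercetin and 8.57 in control cells, the widest gap of the 4 pairs. The 8 hepatocyte markers found on the array under their listed names, ALB, AFP and APOA1 among them, were all above the filter on low values, with a mean level of 14.03 to 14.22 on the quercetin arrays and 13.97 to 14.29 on the control arrays. Of the markers of other cells, 3 of 5 were above the filter for leukocytes, 2 of 5 for endothelial cells and 5 of 7 for fibroblasts. The filter is the median probe-set mean, so a level above it does not by itself show expression. Mean levels of these markers were 7.82 to 8.01 with quercetin and 7.63 to 8.04 in control cells for leukocytes. For endothelial cells they were 7.41 to 7.72 with quercetin and 7.44 to 7.70 in control cells, and for fibroblasts 7.74 to 7.99 with quercetin and 7.80 to 7.97 in control cells. No list separated the treatments, since the ranges overlapped in each. In a sample of many cells, fewer cells of a kind and less RNA per cell cannot be told apart.

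PLXNC1 (chromosome 12, 94148577 to 94307675 on GRCh38.p14) was lower with quercetin at every time by the 1 probe set above the filter, 213241_at. Its log2 level was 8.36 in quercetin-treated cells at 2 h, against 8.90 in control cells. At 4 h it was 8.42 in quercetin-treated cells and 8.91 in control cells. It stood at 8.57 in treated and 9.38 in control cells at 12 h, and at 9.18 in treated and 9.87 in control cells at 24 h. The differences, quercetin minus control, were -0.54, -0.49, -0.81 and -0.69 in order of time, with a mean of -0.63 ± 0.15 (SD over 4 times), or 1.55-fold lower. The treated and control arrays overlapped only because the treated level at 24 h was above the control levels at 2 and 4 h. Genes lower at every time made up 9.28% of the 13298 genes tested, and those also lower by at least 0.5 in the mean made up 0.12%; nothing is read from these shares, since the gene was picked on this contrast. The mean difference was between -0.66 and -0.60 when the arrays were rescaled by medians, cyclic loess or quantiles, and between -0.68 and -0.58 when the pair of any 1 time was left out. With a pair left out, the negative sign was fixed by the pick. The 2 h pair, which stood apart in 18S and spike-in signal, gave -0.54. The 12 h pair gave the widest difference, -0.81, and had the widest gap in the 3' minus 5' signal of ACTB. That signal was 0.88 with quercetin and 1.40 in control cells at 12 h. The part of these measures in the PLXNC1 difference was not tested.

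**Figure D1:**
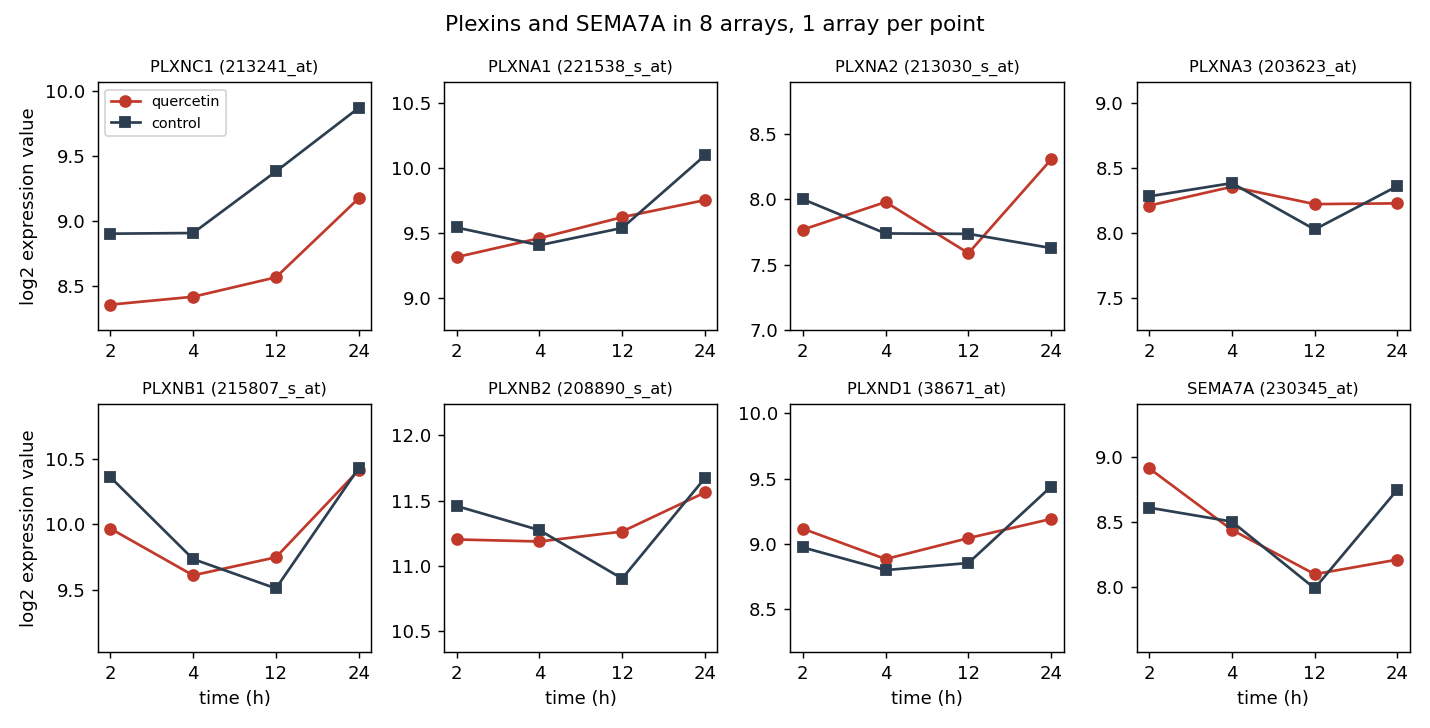
Log2 expression (vertical axis) by time in hours (horizontal axis, evenly spaced categories) for the probe set that represents each gene, with quercetin as circles and control as squares, 1 array per point; every panel spans the same log2 range. PLXNC1 lies lower with quercetin at all 4 times, while the lines of the 7 other genes cross.

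The other 3 PLXNC1 probe sets were dim, with mean levels of 7.34, 6.47 and 6.15 against a filter at 7.43, and they did not share the pattern. Probe set 235328_at differed by -0.06, 0.36, -0.11 and -0.39 from 2 to 24 h. The pair 206471_s_at and 206470_at, designed to the same transcript, had mean differences of 0.02 and -0.05. Over the 8 arrays their Pearson correlations with 213241_at were 0.25 for 235328_at, -0.42 for 206471_s_at and 0.50 for 206470_at, as descriptions across arrays that share treatments and times. Averaging all 4 probe sets gave a PLXNC1 difference of -0.18. The quercetin pattern of PLXNC1 rests on a single probe set.

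Of the 22 probe sets, 213241_at was the only one lower at all 4 times, against 6.99% of every probe set with 1 symbol. No probe set of the 22 was higher at all 4 times, and none had all its quercetin arrays below all its control arrays. The shares at hand for these, 4.54% and 0.308%, are of genes tested, each by its representing probe set, and not of all probe sets. Counted at single times, the representing probe sets were lower with quercetin for 6, 5, 2 and 7 of the 8 genes at 2, 4, 12 and 24 h, where 58%, 54.2%, 40.7% and 66.2% of all genes tested were lower. At 12 h, 6 of the 7 genes other than PLXNC1 were higher with quercetin. Differences of at least 0.5 in size were found for 1 gene at 2 h (13.7% of all genes tested), none at 4 h (2.96%), 1 at 12 h (5.39%) and 3 at 24 h (8.65%). PLXNC1 was among them at 2, 12 and 24 h, joined at 24 h by PLXNA2, which was higher, and SEMA7A, which was lower.

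**Figure D2:**
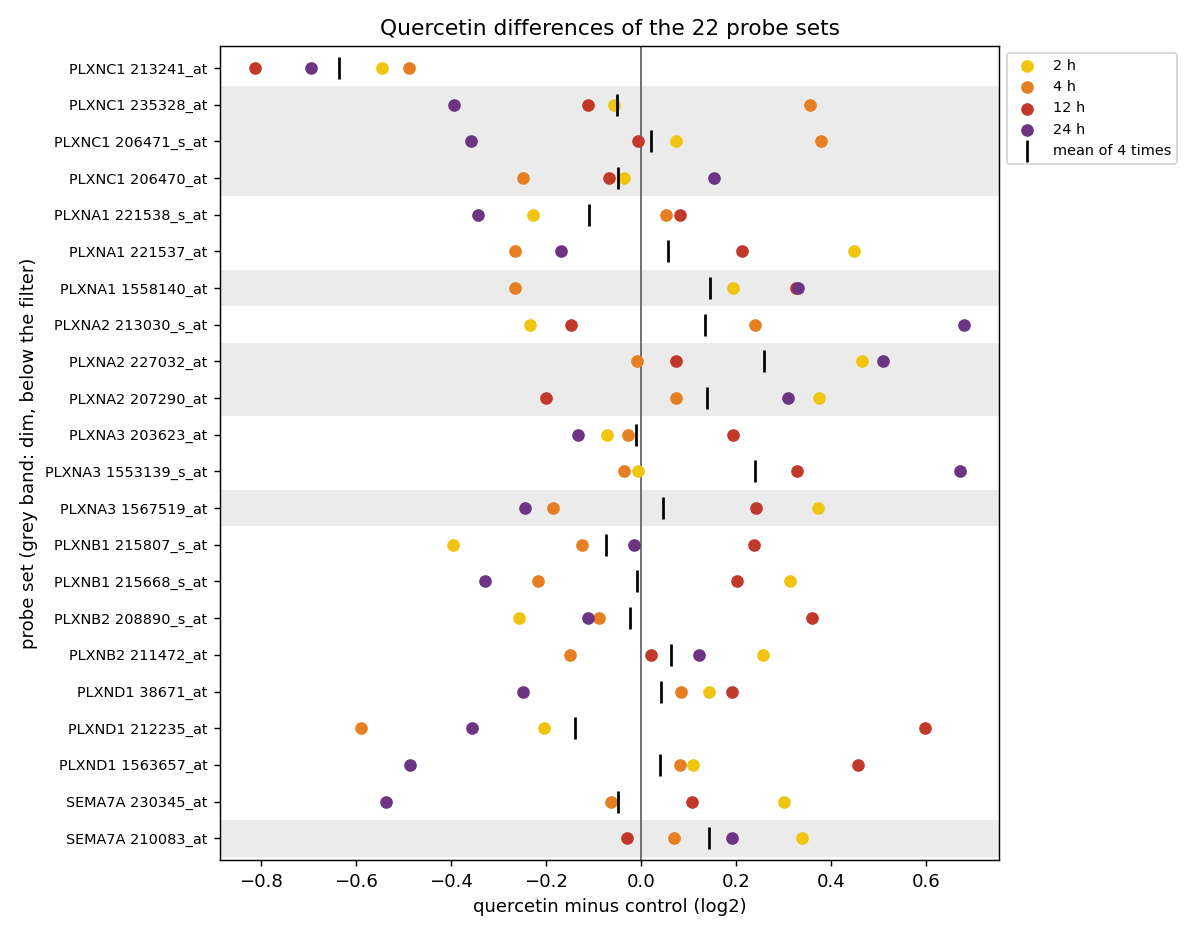
Quercetin minus control (horizontal axis, log2) for each of the 22 probe sets (rows), 1 point per time, with the mean of 4 times as a vertical tick and dim probe sets on grey bands. Only 213241_at of PLXNC1 has all 4 points below 0.

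The class A plexins showed no difference of one direction at every time. PLXNA1, a receptor for class 3 semaphorins through neuropilin 1, read 9.32, 9.46, 9.62 and 9.75 with quercetin at 2, 4, 12 and 24 h, and 9.54, 9.41, 9.54 and 10.10 in control cells (221538_s_at). Quercetin was lower at 2 and 24 h and slightly higher at 4 and 12 h, with a mean difference of -0.11 ± 0.21 (SD over 4 times). A second PLXNA1 probe set above the filter, 221537_at, had a mean difference of 0.06. PLXNA2, which also binds class 6 semaphorins, read 7.77, 7.98, 7.59 and 8.31 with quercetin and 8.002, 7.74, 7.74 and 7.63 in control cells (213030_s_at). Its 24 h difference of 0.68 in the higher direction was the widest of the 8 representing probe sets at that time apart from the -0.69 of PLXNC1, and its mean was 0.13 ± 0.42. The dim PLXNA2 probe sets 227032_at and 207290_at were also higher at 24 h, by 0.51 and 0.31. PLXNA3, the receptor with neuropilin 2 for SEMA3F, had the mean nearest to 0, with 8.21, 8.36, 8.22 and 8.23 with quercetin, against 8.28, 8.38, 8.03 and 8.36 in control cells (203623_at), and a mean of -0.01 ± 0.14. Its other probe set above the filter, 1553139_s_at, was higher with quercetin by 0.33 at 12 h and 0.67 at 24 h, so the pair of PLXNA3 probe sets disagreed at 24 h.

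The class B and D receptors likewise changed sign between times. PLXNB1, the receptor of SEMA4D, read 9.97, 9.61, 9.75 and 10.42 with quercetin at the 4 times and 10.36, 9.73, 9.51 and 10.43 in control cells (215807_s_at). Quercetin was lower at 2 h and higher at 12 h, and the mean was -0.07 ± 0.26. The second PLXNB1 probe set above the filter, 215668_s_at, differed by 0.31, -0.22, 0.20 and -0.33 from 2 to 24 h. PLXNB2, a receptor of SEMA4C, read 11.20, 11.19, 11.26 and 11.56 with quercetin and 11.46, 11.27, 10.90 and 11.67 in control cells (208890_s_at). Its mean of -0.02 ± 0.27 became 0.03 under cyclic loess or quantile scaling, so its sign depends on the scaling. PLXND1, the receptor of SEMA3E that is best known from endothelial cells, read 9.12, 8.88, 9.04 and 9.19 with quercetin and 8.97, 8.80, 8.85 and 9.44 in control cells (38671_at), with a mean of 0.04 ± 0.20. Its probe set 212235_at differed by -0.59 at 4 h and 0.60 at 12 h, sizes that 38671_at did not show (0.08 and 0.19).

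SEMA7A, the ligand, did not follow its receptor. Its probe set 230345_at read 8.91, 8.44, 8.10 and 8.21 with quercetin at 2, 4, 12 and 24 h, and 8.61, 8.50, 7.99 and 8.75 in control cells. It was higher with quercetin at 2 h, by 0.30, and differed by -0.54 at 24 h, with a mean of -0.05 ± 0.36. The dim probe set 210083_at was 0.34 higher at 2 h and 0.19 higher at 24 h, so the probe sets disagreed at 24 h. Across the 7 genes other than PLXNC1, mean differences ran from -0.11 to 0.13 with SDs over times of 0.14 to 0.42, and the median SD of all genes tested was 0.23. Of the 5 genes with at least 2 probe sets above the filter, 4 had probe sets whose means disagreed in sign.

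Of the 8 genes, PLXNC1 was the 1 called changed between 2 and 24 h. Its level was 0.89 ± 0.19 (SE) higher at 24 h than at 2 h on the log2 scale, with a 95% interval of 0.50 to 1.28 and an adjusted p of 0.00181 in limma over all 13298 genes, a 1.85-fold rise that had the same direction with quercetin (0.81) and in control cells (0.96). That is 1 of 8 genes called, where 21.3% of all genes tested were called, so the members' share was no higher than that of the array. The fit took time and treatment as additive terms, with the treatments standing in for replicates of a time and 3 residual degrees of freedom. Its error starts from the scatter of the quercetin difference over times, whose SD was 0.15 for PLXNC1 against a median of 0.23. These are SDs of a difference between 2 arrays, and the SD per array is smaller. In limma the error is then moderated by the variance of all genes tested, which raised it to an SD per array of 0.19 for PLXNC1. The test is therefore not independent of the pick, and without the treatment term the adjusted p was 0.0275 in limma. PLXNC1 remained called in all 20 alternatives in which it was tested, at 0.74 to 0.95 on the log2 scale. With the low and high spike-in arrays as a block, a term added after the data were seen, the change was 0.83. The spike-in class differed within a time only at 2 h. For this comparison the block therefore amounted to leaving out the control array at 2 h, which also gave 0.83. PLXNC1 was not tested with averaged probe sets, whose mean fell below the filter. The dim probe sets did not show a rise of this size: 24 h minus 2 h was -0.10 with quercetin and 0.24 in control cells for 235328_at, -0.38 and 0.05 for 206471_s_at, and 0.40 and 0.21 for 206470_at, in the same order of treatments, so the rise too rests on 213241_at. The 24 h arrays also differed from the 2 h arrays in RNA measures: the 3' minus 5' signal of ACTB was 1.39 with quercetin and 1.36 in control cells at 24 h, and 1.11 with quercetin and 0.88 in control cells at 2 h, and the part of these in the result was not tested. Between 2 and 24 h the median of all tested genes shifted by 0.09 as deposited, -0.02 under loess, -0.03 under quantile scaling and 0.15 under median centring.

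The 7 other genes did not pass the test at 24 h against 2 h. PLXNA1 came nearest, at 0.49 ± 0.18 (SE, adjusted p = 0.0565 in limma), with an interval of 0.12 to 0.87, but its other probe set above the filter, 221537_at, gave -0.0045. PLXNB2 stood at 0.29 ± 0.16 and PLXND1 at 0.27 ± 0.19, with adjusted p of 0.206 and 0.336 in limma, and the second PLXNB2 probe set, 211472_at, gave -0.17. PLXNB1 was at 0.26 ± 0.18, a value that fell to -0.0034 under quantile scaling, and PLXNA3 and PLXNA2 at 0.05 ± 0.19 and 0.08 ± 0.21. The second PLXNB1 probe set, 215668_s_at, gave -0.22. SEMA7A was at -0.28 ± 0.21, made of -0.70 with quercetin and 0.14 in control cells, and PLXNA2 was made of 0.54 with quercetin and -0.37 in control cells. Whether the 24 h against 2 h change differed between the treatments was not tested. The quercetin difference at 12 and 24 h minus that at 2 and 4 h was -0.24 for PLXNC1 and -0.33 for SEMA7A. It was -0.14 for PLXND1 and -0.04 for PLXNA1, and went the other way for the rest. There it was 0.37 for PLXNB1, 0.30 for PLXNB2, 0.26 for PLXNA2 and 0.08 for PLXNA3. These values are given as a description because PLXNC1 was picked on these differences. The 12 h and 4 h comparisons with 2 h share the 2 h arrays with the 24 h one.

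**Figure D3:**
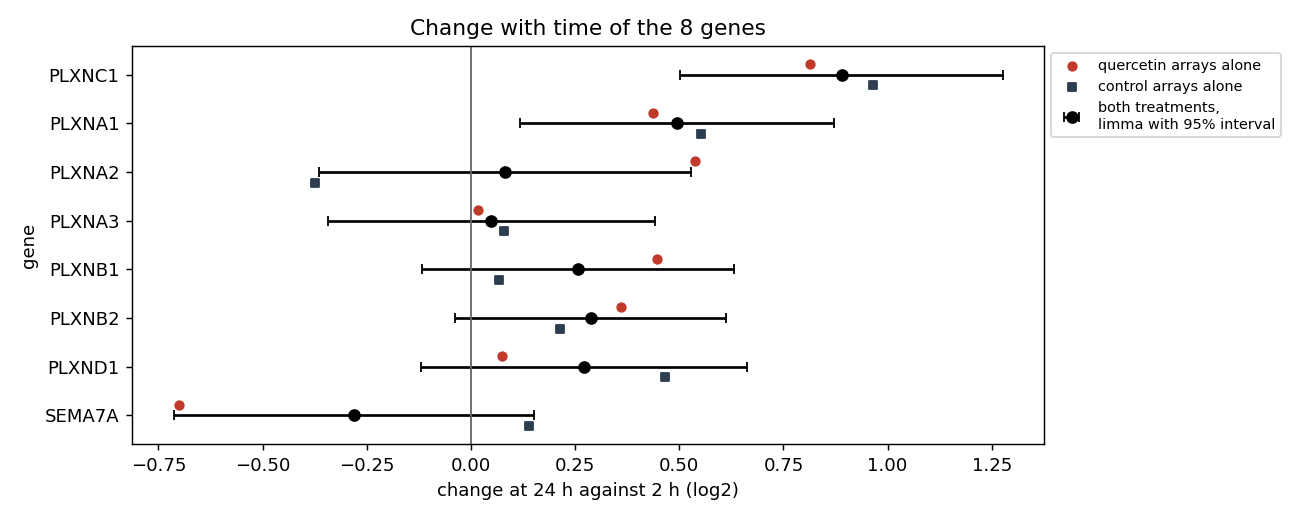
Change at 24 h against 2 h (horizontal axis, log2) of each gene (rows), from limma with its 95% interval over both treatments (black), and in quercetin arrays alone (circles) and control arrays alone (squares). The PLXNC1 interval lies above 0 and both treatments are on its side, while SEMA7A and PLXNA2 have treatments on opposite sides of 0.

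No gene of the 8 passed at 12 h against 2 h (background 3%) or at 4 h against 2 h (background 0.534%). By unadjusted p, 2276 genes at 12 h and 2350 at 4 h were under 0.05. Among the members PLXNB1 was at -0.54 ± 0.18 at 12 h (unadjusted p = 0.0071, adjusted p = 0.115 in limma) and at -0.49 ± 0.18 at 4 h (unadjusted p = 0.0122, adjusted p = 0.159 in limma). SEMA7A was at -0.72 ± 0.21 at 12 h (unadjusted p = 0.0025, adjusted p = 0.0681 in limma). It was at -0.95 without the control array at 2 h and at -0.48 without the quercetin array at 2 h. Each of these fits rests on 1 array at 2 h. With averaged probe sets SEMA7A was at -0.33 (adjusted p = 0.301 in limma). Its dim probe set 210083_at read 6.70 with quercetin and 6.36 in control cells at 2 h, and 6.57 and 6.60 at 12 h. PLXNC1 was at 0.34 ± 0.19 at 12 h (adjusted p = 0.356 in limma). By 215807_s_at, PLXNB1 was lowest at 4 and 12 h with both treatments, and its level differed among the 4 times in the F-test (adjusted p = 0.00271 in limma). Its other probe set above the filter, 215668_s_at, gave 0.11 at 4 h and -0.02 at 12 h against 2 h, so this low rests on 215807_s_at. The F-test also called PLXNC1 (adjusted p = 0.00207) and PLXNB2 (adjusted p = 0.0480), 3 of 8 genes where 38.1% of all genes tested were called, while SEMA7A (adjusted p = 0.0538) did not pass.

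A comparison of 24 h with 4 h, added after the data were seen, leaves out the 2 h pair with its 18S gap, but 18S also differed between these times: 9.16 with quercetin and 9.82 in control cells at 24 h, and 11.62 with quercetin and 11.52 in control cells at 4 h. ACTB 3' minus 5' was 1.39 with quercetin and 1.36 in control cells at 24 h, and 1.17 with quercetin and 1.12 in control cells at 4 h, and the part of both in the result was not tested. The comparison called 4 of the 8 genes in limma, where 42.3% of all genes tested were called (32.8% higher and 9.45% lower). All 4 were higher by their representing probe sets: PLXNC1 at 0.86, PLXNB1 at 0.75, PLXNA1 at 0.49 and PLXND1 at 0.47. Their adjusted p were 0.000974, 0.00216, 0.0346 and 0.0479 in limma. Other probe sets above the filter did not all share these rises. Against 2 h, 215668_s_at of PLXNB1 gave -0.22 at 24 h and 0.11 at 4 h. For PLXNA1, 221537_at gave -0.0045 at 24 h and -0.0062 at 4 h. For PLXND1, 1563657_at gave -0.12 at 24 h and 0.07 at 4 h, while 212235_at gave 0.40 and -0.24, a rise. PLXNC1 had no other probe set above the filter.

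Of the other genes of the semaphorin and plexin pathway, 64 were listed, 61 were on the array and 50 could be tested. The 50 tested genes were lower with quercetin at all times in 5 cases and higher at all times in 2, or 10% lower against 9.28% of all genes tested. Among the ligands, SEMA3F, the secreted partner of PLXNA3, was lower at every time but by little, from -0.15 to -0.03, with a mean of -0.10 ± 0.05. SEMA5A was higher at every time, by 0.75, 0.10, 0.30 and 0.20, with a mean of 0.34 ± 0.29. MET, the hepatocyte growth factor receptor that class B plexins couple to, was lower at every time, with differences of -0.07, -0.21, -0.11 and -0.33. RRAS2, a Ras-family GTPase, was lower at every time with a mean of -0.17 ± 0.19. PLXNA4 and PLXNB3, plexins of classes A and B, had mean differences of -0.10 and -0.05 and did not pass the test at 24 h against 2 h (adjusted p = 0.0647 and 0.697 in limma).

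At 24 h against 2 h, 9 of the 50 were called higher and none lower (18% called; 17.3% of all genes tested were called higher and 3.98% lower), and cyclic loess scaling gave 2 higher and 2 lower. MET was called in 19 of 20 alternatives, not with the mean of its probe sets, and stood at 0.87 ± 0.15 (SE, adjusted p = 0.000251 in limma). The other 8 were RRAS2 at 0.62 ± 0.16, SEMA4C, a ligand of PLXNB2, at 0.68 ± 0.19, CDK5 at 0.68 ± 0.19, PTK2 at 0.57 ± 0.15, GSK3B at 0.68 ± 0.23, PAK2 at 0.51 ± 0.18, RAP1B at 0.45 ± 0.16 and RAC1 at 0.36 ± 0.13. By list, these were 1 of 12 transmembrane semaphorins tested, 1 of 5 co-receptors and partners, 3 of 13 GTPases and regulators and 4 of 16 cytoskeletal effectors, with median changes of -0.02, 0.19, 0.16 and 0.13. Neither of the 2 class 3 semaphorins tested nor the other 2 plexins were called. The adjusted p of the 8 genes after MET ran from 0.00685 to 0.0466 in limma. Of 20 alternatives, RRAS2 was called in 17, SEMA4C, CDK5 and PTK2 in 14 each, and GSK3B in 11. PAK2 was called in 8, RAC1 in 7 and RAP1B in 6. CDK5, GSK3B, PTK2 (focal adhesion kinase) and PAK2 are kinases that act on the actin skeleton and adhesion. Leaving out the control array at 24 h reduced the count to 1, MET, leaving out either quercetin array at 2 or 24 h reduced it to 3, and loess kept MET and RRAS2. No pathway gene was called at 12 h or 4 h against 2 h.

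**Figure D4:**
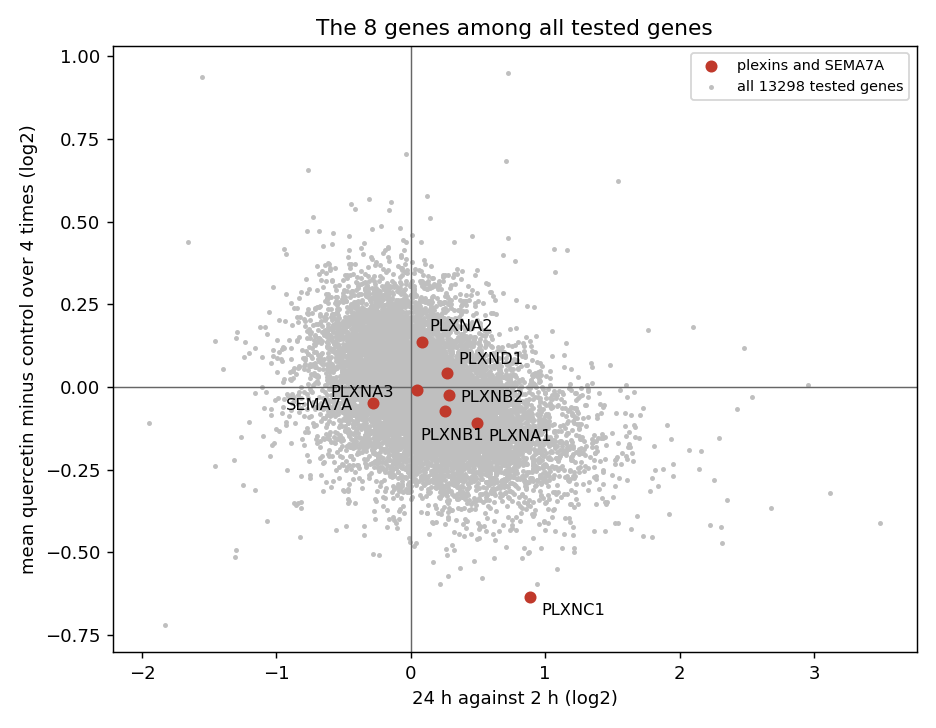
Mean quercetin minus control over 4 times (vertical axis, log2) against the change at 24 h over 2 h (horizontal axis, log2) for all 13298 genes tested (grey) and the 8 genes (labelled red points). PLXNC1 lies at -0.63 and 0.89, and the other 7 lie between -0.11 and 0.13 on the vertical axis.

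The genes whose pattern over the 8 arrays was most like that of PLXNC1, by Pearson r over all tested genes, were ZNF394 (0.976), AOPEP (0.968), ZNF555 (0.965), ARHGEF26 (0.963) and TANC1 (0.958). Being chosen for likeness over the same arrays, they share its quercetin signs and its rise by selection, so their values are descriptions with no test. ARHGEF26 was lower with quercetin, with differences of -0.45, -0.12, -0.63 and -0.76 from 2 to 24 h, and higher at 24 h than at 2 h by 0.97. ZNF555, a zinc finger gene, had a mean difference of -0.43 and a time change of 0.74. AOPEP, an aminopeptidase, had -0.32 and 0.62. TANC1, a scaffold gene, had -0.37 and 0.59, and ZNF394 had -0.17 and 0.30. Ranked by Spearman correlation 1 of the 5 stayed among the leading 5, and under loess scaling 4 did. Of the other members, PLXNA1 had the highest r with PLXNC1, 0.81, and SEMA7A had -0.10; these r describe 8 arrays that share treatments and times.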

How the data were processed

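The authors deposited 1 log2 expression value per probe set and array; the submitters' processing notes name RMA. Neither its version nor its settings were named in those sources. Of 54675 probe sets, 41091 carried 1 gene symbol, 1801 several and 11721 none. For each gene the probe set with the highest mean represented it, and 13298 genes above a floor of 7.43 (the median probe-set mean) were tested. limma 3.58.1 in R 4.3.3 fitted time plus treatment with 3 residual degrees of freedom and Benjamini-Hochberg adjustment at 0.05; it was tested on simulated data. With 1 array per treatment and time, p-values measure only the spread between these arrays, which may be technical. The precision of any value is limited by the 8 arrays. The members and lists were chosen with earlier results of these data known. Named genes are the members, up to 4 genes per pathway list (those called at 24 h with the largest changes, then those with the largest mean quercetin difference), and the 5 genes most like PLXNC1. Alternatives changed the filter, the summary of probe sets, the scaling, the variance model, the terms and the arrays left out. The spike-in block and 24 h against 4 h were added after the data were seen. Promoter windows came from RefSeq (GRCh38.p14).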

Additional observations from a re-analysis of the deposited data

How the results depend on the processing

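Of 515 alternative values computed, 445 kept direction and call (tested genes), stayed within 1.5 times the reported count (counts) or moved by less than the SD over times (quercetin differences). Small quercetin differences turned sign within that SD: PLXNA1 ran from -0.17 to 0.06 and PLXNA2 from -0.05 to 0.26. The PLXNC1 difference was -0.18 as the mean of its probe sets. Members lower with quercetin at every time numbered 4 without the 12 h pair. Nothing is read from that count, since the share of all genes lower at 2, 4 and 24 h together was not at hand. At 12 h 40.7% of all genes tested were lower, against 58%, 54.2% and 66.2% at 2, 4 and 24 h. Members above the filter were 5 at the 75th percentile. At 24 h against 2 h, 2 members were called under the 75th percentile filter and under median centring, which added PLXNA1, 0 with the mean of probe sets, where PLXNC1 was below the filter, and 4 against 4 h; leaving out each array gave 1 to 1. At 12 h against 2 h, SEMA7A ran from -0.95 without the control array at 2 h to -0.48 without the quercetin array at 2 h. The F-test called 0 members when probe sets were averaged, 1 when limited to gene-specific probe sets, and 2 to 4 without each array. Pathway genes called higher were 5 with no filter, 2 with the mean of probe sets, 2 under loess, 1 under quantile scaling, 20 against 4 h and 1 to 10 without each array (3 without either quercetin array at 2 or 24 h, 1 without the control array at 24 h); those called lower were 2 under loess, 1 under quantile scaling, 2 with the spike-in block, 2 against 4 h and 0 to 2 without each array. Of the genes most like PLXNC1, 1 was shared by Spearman correlation. Time changes that turned were PLXNA3 (-0.082 with averaged probe sets, -0.075 against 4 h, -0.034 to 0.13 without each array), PLXNA1 (-0.0045 with gene-specific probe sets), PLXNB2 (-0.17 likewise), PLXNB1 (-0.0034 under quantile scaling), SEMA7A (0.0090 against 4 h, -0.61 to 0.046 without each array) and PLXNA2 (-0.28 to 0.45 without each array, negative without either quercetin array at 2 h, -0.16, or 24 h). The cause of these changes was not tested. Over all genes, 24 h against 2 h called 952 to 3230 without each array and 5619 against 4 h, where the reported count was 2831, and averaged probe sets gave 1525. Over all alternatives the count at 12 h ran from 49 to 607, where the reported one was 399, and at 4 h from 0 to 862, where it was 71. Quercetin and control were paired by time in the reported fit. The 8 arrays limit the size of change that can be called, and dim probe sets lie close to background.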
